A study of Mus musculus with 8 samples.

Results

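A set of 10 small structured RNAs was looked for by symbol, namely Rmrp, Rpph1, Rn7sk, Terc, Rnu11, Rnu12, Vaultrc5, Rny1, Rny3 and Bc1, in the gene counts of mouse glomerular mesangial cells (MMC). Of these 10 names, 7 were among the 24639 counted rows, and Rn7sk, Rny1 and Rny3 had none. Bc1 named 2 rows, so 8 rows were followed. The primary MMC came from C57BL/6J mice, either wild-type (WT) or carrying a CRISPR-Cas9 deletion at miR-379 (miR-379KO), and were kept in serum-containing medium without treatment. The 8 libraries formed 4 groups of 2 replicates, A and B, with poly(A)-selected RNA (called total RNA in the labels) and RNA recovered with an antibody to AGO2, the Argonaute protein that carries microRNAs (AGO2-IP), from each genotype. The AGO2-IP RNA came from UV cross-linked, sonicated cells, and glomeruli were pooled before culture. The study's methods describe male mice, and the age at which the mice gave these cultures was not given in the sources used here.

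These RNAs work as parts of RNA-protein machines rather than as messages. Rmrp is the RNA of RNase MRP, which cuts precursor ribosomal RNA, and Rpph1 is the catalytic RNA of RNase P, which trims the 5′ end of precursor tRNA. Rnu11 and Rnu12 are the U11 and U12 small nuclear RNAs that recognise the rare introns of the minor spliceosome, Terc is the template RNA of telomerase, and Rn7sk holds the elongation factor P-TEFb in an inactive form. Vaultrc5 belongs to the vault particle, Rny1 and Rny3 are Y RNAs bound by Ro60 and La, and Bc1 is a rodent RNA known from nerve cells, where it restrains translation. RNA polymerase III makes Rmrp, Rpph1, Rn7sk, the vault and Y RNAs and Bc1, whereas polymerase II makes Terc, U11 and U12, and most of these RNAs have no poly(A) tail.

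The RNase MRP and RNase P RNAs carried nearly all the counts, and they are printed first, from the RefSeq loci of GRCm38.p6 (the mm10 build). Rmrp lies at chr4:43492785-43493059 on the minus strand (275 bases) and Rpph1 at chr14:50807447-50807771 on the minus strand (325 bases, of which the first 300 are printed). Neither overlapped another annotated gene. Capitals mark their longest shared stretch, 9 bases.
Rmrp: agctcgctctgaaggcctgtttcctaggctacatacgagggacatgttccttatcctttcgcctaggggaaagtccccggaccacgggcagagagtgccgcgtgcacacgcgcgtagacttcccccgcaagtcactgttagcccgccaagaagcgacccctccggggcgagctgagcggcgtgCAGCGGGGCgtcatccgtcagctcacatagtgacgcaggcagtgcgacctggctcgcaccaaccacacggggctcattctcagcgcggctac
Rpph1: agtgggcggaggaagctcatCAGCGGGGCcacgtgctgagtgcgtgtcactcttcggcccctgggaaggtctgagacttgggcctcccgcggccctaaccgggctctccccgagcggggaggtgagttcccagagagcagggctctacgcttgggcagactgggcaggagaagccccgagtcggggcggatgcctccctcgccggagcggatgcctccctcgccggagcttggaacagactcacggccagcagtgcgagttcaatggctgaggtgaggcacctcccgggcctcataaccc

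The minor spliceosome RNAs are printed because they fell in miR-379KO AGO2-IP. Rnu12 lies at chr15:83149645-83149794 on the plus strand, 267 bases from Poldip3, and capitals mark TAAGGAA, the complement of the branch site consensus of minor introns. This 7-base word occurred on either strand in 4.46% of 32851 promoter windows of 300 bases. The Rnu11 locus, chr4:132270080-132270213 on the minus strand, is printed from the longer GENCODE entry (134 bases), with the part that the RefSeq entry also holds in capitals. That RefSeq entry (chr4:132270079-132270186) lacked the first 27 bases, so counting on RefSeq could miss the 5′ end of U11.
Rnu12: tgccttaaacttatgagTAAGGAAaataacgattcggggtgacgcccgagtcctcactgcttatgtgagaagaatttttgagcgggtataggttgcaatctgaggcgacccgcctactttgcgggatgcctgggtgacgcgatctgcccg
Rnu11: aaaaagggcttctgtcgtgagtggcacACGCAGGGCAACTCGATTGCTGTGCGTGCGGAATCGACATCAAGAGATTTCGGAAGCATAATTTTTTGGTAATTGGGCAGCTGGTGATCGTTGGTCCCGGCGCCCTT

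Terc and Bc1 are shown for the template and for the run of A. The Terc gene occupies chr3:96414437-96414833 on the minus strand (397 bases), and its first 60 bases are printed with CTAACCC, the letters that template the telomere repeat, in capitals. This word was found on either strand in 2.69% of the same promoter windows. The only Bc1 locus of RefSeq is at chr7:144914470-144914623 on the plus strand, with an internal run of 23 A in capitals, and 59 of its 104 windows of 51 bases (the length of a single-end read) also occurred elsewhere in the genome. In the other 9 RNAs the longest run of A was 2 to 5 bases.
Terc: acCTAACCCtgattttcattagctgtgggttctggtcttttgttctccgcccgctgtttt
Bc1: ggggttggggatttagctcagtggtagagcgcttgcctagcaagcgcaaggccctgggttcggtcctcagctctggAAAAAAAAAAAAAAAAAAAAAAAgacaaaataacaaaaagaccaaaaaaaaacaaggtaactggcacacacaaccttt

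The annotation also bore on which RNAs could be counted. The 2 rows named Bc1 carried chromosomes 10 and X, not 7, and are called Bc1 rows here because no deposited value ties them to the Bc1 gene. BLAST gave 18556 hits to the Bc1 sequence across the genome, 1036 of them on chromosome 10 and 1483 on X. Leaving out any hit of full identity, the best on these over 80% of its length was 88.8% and 87.5% identical. Over the genome, Bc1 had 7 near copies at 90% identity or more. Of the RNAs without a row, Rn7sk had 191 of 282 windows of 51 bases elsewhere in the genome, whereas Rny1 and Rny3 had none. Why these 3 names had no row was not tested, and symbols with 0 counts in all 8 libraries, such as Rnu7, kept theirs. Rmrp, Rpph1, Rnu11, Rnu12, Terc and Vaultrc5 had no such repeated window, although Rnu11 had 2 and Rnu12 3 near copies at 90% identity or more. The 3′ ends of Rmrp, Rpph1, Rn7sk, Rny1, Rny3 and Bc1 held runs of 4 to 6 T, the letters at which RNA polymerase III stops, whereas that of the RefSeq entry of Vaultrc5 held 2. TTTT stood within the window from 5 bases before to 20 after the 3′ end of 21.5% of 49597 genes.

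Total RNA libraries held 17168230 to 22660743 gene counts and AGO2-IP libraries 5587611 to 17095021. In AGO2-IP the rows Rn45s (ribosomal RNA precursor) and Lars2 took most counts, leaving 1115782 to 1875037 outside them, which served as the denominator of the levels below. Among reads placed in genes, outside them or as ambiguous, the share outside annotated genes was 46.6% and 49.7% in WT AGO2-IP. In miR-379KO AGO2-IP it was 73.4% and 76.4%. This share leaves out alignments that were not unique, which were 49.8% and 46.5% of all in WT AGO2-IP and 54.4% and 53.0% in miR-379KO AGO2-IP. Of 7 mesangial marker genes, 5 were above 1 CPM (a count in 1000000 gene counts) in every total RNA library, with a summed level of 7140 to 11300. By the same rule 3 of 5 podocyte and 2 of 5 tubular markers passed, and 0 of 5 endothelial and 0 of 5 leukocyte markers. The podocyte markers summed to 252 to 614, and the endothelial, tubular and leukocyte markers to at most 34.0. The Mir379 row held 0 to 4 counts in all 8 libraries and could not check the deletion. Replicates differed by more than sampling noise, with chi-square per degree of freedom of 3.51 to 119.

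The first comparison asked how far these RNAs were recovered with AGO2 relative to poly(A) RNA. Rmrp and Rpph1 were among the most abundant rows of AGO2-IP and nearly absent from total RNA, and the U11, U12, vault and telomerase RNAs were lower but had the same direction in both genotypes. Only the Bc1 row of chromosome X went the other way. In edgeR, 6 of 7 tested rows were higher in AGO2-IP and 1 was lower in WT MMC, against 35.7% higher and 7.33% lower of all 17429 rows tested. In miR-379KO MMC the same test gave 6 higher and 1 lower, against 41.6% and 19.3%. Each of these rows passed the count filter only through the assay where it was high. The direction of a tested row was therefore fixed in advance, and these counts describe the rows without testing it. Fewer cells holding an RNA and less RNA per cell cannot be told apart in such bulk libraries.

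Rmrp counts were 6 and 6 in total RNA of WT cells, 5 and 5 in that of miR-379KO cells, 51444 and 33046 in WT AGO2-IP and 34160 and 14612 in miR-379KO AGO2-IP. This placed the RNase MRP RNA at rank 4 to 7 of all rows in every AGO2-IP library. Per count outside Rn45s and Lars2, its summed AGO2-IP level was 64900 times that of total RNA in WT (exact 95% interval 37200 to 126000) and 76100 times in miR-379KO (41400 to 159000). Rpph1 had 1 and 2 counts in total RNA of WT cells, 4 and 3 in that of miR-379KO cells, 24349 and 14585 in WT AGO2-IP and 19187 and 11512 in miR-379KO AGO2-IP. The RNase P RNA was at rank 7 to 9 in AGO2-IP. Its ratio was 120000 in WT (41000 to 581000) and 68400 in miR-379KO (33200 to 170000). The intervals of both RNAs overlapped between genotypes, and all intervals and bounds here cover counting error only.

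**Figure D1:**
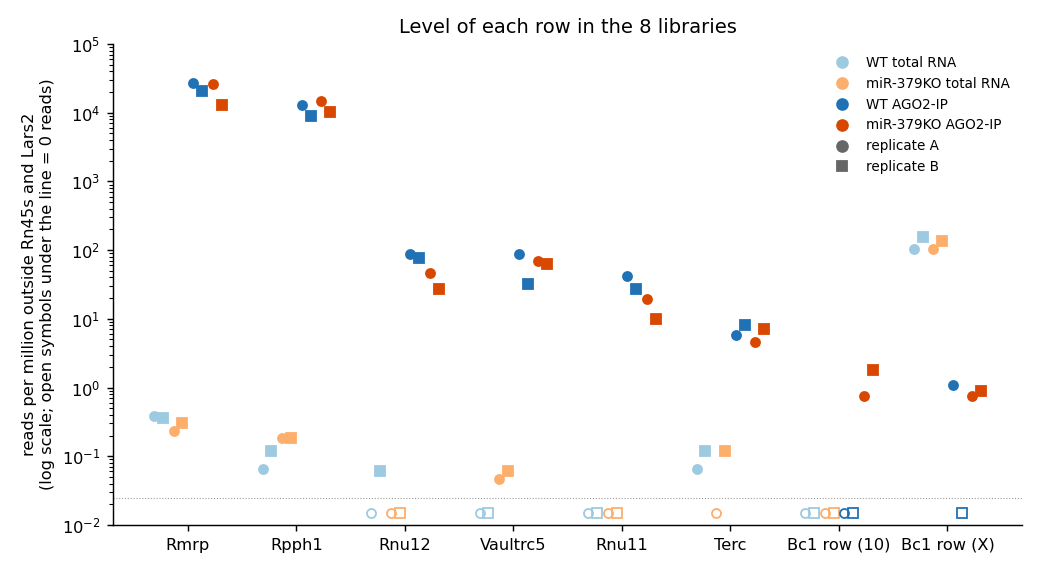
Level of each of the 8 rows in each library, in reads per 1000000 counts outside Rn45s and Lars2 (log axis), by group (colour) and replicate (circle A, square B). Rmrp and Rpph1 stand between 9080 and 27400 in AGO2-IP and under 1 in total RNA, and the Bc1 row of chromosome X is the one row above 100 in total RNA.

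The 4 other RNAs with a row on their annotated chromosome had 6 to 166 counts per AGO2-IP library. Rnu12 had 0 and 1 counts in total RNA of WT cells, none in that of miR-379KO cells, 166 and 122 in WT AGO2-IP and 61 and 30 in miR-379KO AGO2-IP. Rnu11 had no count in any total RNA library, 79 and 44 in WT AGO2-IP and 25 and 11 in miR-379KO AGO2-IP. No AGO2-IP library overlapped a total RNA library for either RNA. With 0 counts set to a floor of 3 over the group, U11 was at least 378-fold higher in WT and at least 187-fold higher in miR-379KO AGO2-IP. U12 was at least 473-fold higher in miR-379KO, and its WT ratio was 2660 (473 to 105000).

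Vaultrc5 counts were 0 and 0 in total RNA of WT cells, 1 and 1 in that of miR-379KO cells, 165 and 52 in WT AGO2-IP and 92 and 69 in miR-379KO AGO2-IP. The vault RNA was thus at least 667-fold higher in WT AGO2-IP, and its ratio in miR-379KO was 1260 (342 to 10500). Terc, the telomerase RNA, had 1 and 2 counts in total RNA of WT cells, 0 and 2 in that of miR-379KO cells, 11 and 13 in WT AGO2-IP and 6 and 8 in miR-379KO AGO2-IP. Its ratios of 73.8 (22.4 to 383) and 109 (25.1 to 990) were the smallest ratios among the 6 RNAs. The Bc1 row of chromosome X held 1600, 2584, 2234 and 2208 counts in total RNA, in the order WT A, WT B, miR-379KO A and B, and 0 to 2 in AGO2-IP. It was 227 times higher in total RNA in WT (62.7 to 1870) and 142 times in miR-379KO (39.4 to 1180). The Bc1 row of chromosome 10 had 1 and 2 counts in miR-379KO AGO2-IP and none elsewhere.

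**Figure D2:**
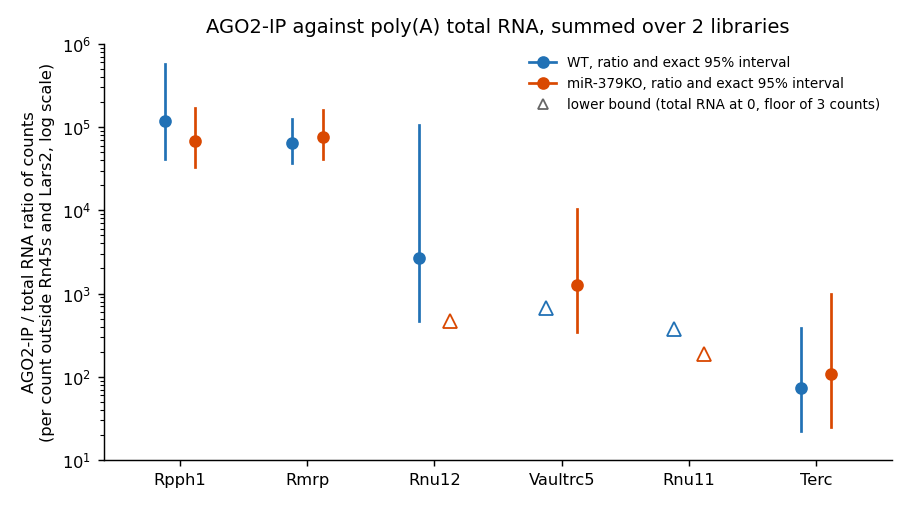
Ratio of AGO2-IP to total RNA counts for 6 RNAs (log axis), summed over the 2 libraries of a genotype and scaled to counts outside Rn45s and Lars2, with exact 95% intervals from counting error or, where total RNA was at 0, a lower bound (triangle). The ratios run from 73.8 for Terc to 120000 for Rpph1 in WT.

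The edgeR log2 differences were 16.83 ± 0.69 (SE, n = 2 per group) for Rpph1 and 16.10 ± 0.72 for Rmrp in WT, and 15.56 ± 0.65 and 15.73 ± 0.72 in miR-379KO, with adjusted p from 4.28e-11 to 1.40e-10. Terc had the smallest differences among the RNAs higher in AGO2-IP, 6.20 ± 0.81 in WT and 6.05 ± 0.91 in miR-379KO (adjusted p 2.17e-05 and 1.48e-05). The Bc1 row of chromosome X differed by -7.63 ± 0.56 and -7.54 ± 0.56, values that rest on 2 AGO2-IP counts per genotype (-13.41 in WT without WT AGO2-IP A). The assays differed in library preparation as well as in AGO2 recovery, since one selected poly(A) RNA and the other was made from cross-linked, sonicated fragments. The paper also gives paired-end reads for AGO2-IP, and single-end or paired-end reads for RNA sequencing. The parts of these steps cannot be told apart. No AGO2-IP with a control antibody was analysed here, and these p-values do not bear on a direction that the count filter had already set.

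Per kilobase of transcript, Rmrp ranked 1 to 3 and Rpph1 5 in the 4 AGO2-IP libraries among 24319 rows of known length. Rmrp stood at 87300 ± 17600 (SD, n = 2) reads per kilobase and 1000000 counts outside Rn45s and Lars2 in WT and 71300 ± 33500 in miR-379KO, and Rpph1 at 34000 ± 8490 and 38400 ± 9460. U12 followed at 548 ± 59.2 and 245 ± 93.1, and U11 at 322 ± 96.4 and 134 ± 60.6. The vault RNA, at 174 ± 114 and 192 ± 17.4, did not differ from U11 beyond the spread of the libraries. This order rests on the RefSeq entry of Vaultrc5 (345 bases), since with the GENCODE entry (143 bases) it stood at 421 ± 275 in WT and 462 ± 42.0 in miR-379KO, where it was then above U11 and U12. Terc came last, at 17.6 ± 3.97 and 14.8 ± 4.60.

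Together the 8 rows made up 4.06% (A) and 2.98% (B) of WT AGO2-IP counts outside Rn45s and Lars2, compared to 4.09% and 2.35% of those in miR-379KO. Rmrp and Rpph1 accounted for 99.4% to 99.7% of this sum. In total RNA the same rows made up 0.0104% to 0.0156%, nearly all of it the Bc1 row of chromosome X. The mean share in AGO2-IP was 3.52% in WT and 3.22% in miR-379KO, a gap smaller than the spread between replicates.

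The 2 endonuclease RNAs did not keep one ratio. Rmrp was 2.11 (A) and 2.27 (B) times Rpph1 in WT AGO2-IP, compared to 1.78 and 1.27 times in miR-379KO. Both miR-379KO ratios lay below both WT ratios, but 2 libraries against 2 allow no two-sided permutation p under 0.333, and the miR-379KO pair was farther apart than its A library was from WT A. The ratio of Rnu12 to Rnu11, which enter the minor spliceosome as 1 particle, was 2.10 and 2.77 in WT against 2.44 and 2.73 in miR-379KO, and the genotypes overlapped.

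**Figure D3:**
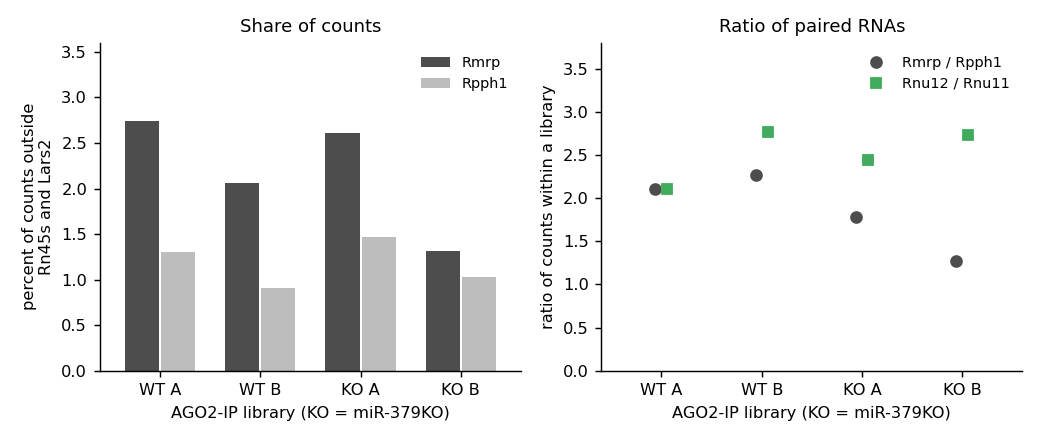
Left, Rmrp and Rpph1 as percent of AGO2-IP counts outside Rn45s and Lars2, one bar per library. Right, ratio of counts of Rmrp to Rpph1 (circles) and Rnu12 to Rnu11 (squares) within each AGO2-IP library, where Rmrp to Rpph1 runs from 2.27 in WT B to 1.27 in miR-379KO B.

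The second comparison asked which of these RNAs differed between genotypes within AGO2-IP. The minor spliceosome RNAs U11 and U12 fell in miR-379KO MMC, and the other 4 tested RNAs did not pass the test. In edgeR, 0 of 6 tested rows were higher and 2 were lower, against 21.4% higher and 9.52% lower of all 13505 rows tested, and the median log2 fold change was -0.58 for the 6 rows and -0.01 for all rows. The Bc1 rows were too low to be tested.

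Levels are given in reads per 1000000 counts outside Rn45s and Lars2. Rnu12 was at 88.5 and 76.0 in the WT libraries (A and B) against 46.6 and 26.9 in the miR-379KO ones. Rnu11 was at 42.1 and 27.4 in WT against 19.1 and 9.86 in miR-379KO. For both RNAs each miR-379KO library lay below each WT library. With 2 libraries against 2 no two-sided permutation p under 0.333 is possible. The share of all rows that separate in this way was not counted. The log2 fold change was -1.46 ± 0.27 for Rnu12 (SE, n = 2 per group, adjusted p 6.39e-04 in edgeR) and -1.55 ± 0.35 for Rnu11 (0.00253). Comparing libraries of the same letter, miR-379KO over WT was 0.527 and 0.354 for Rnu12 and 0.454 and 0.360 for Rnu11. The size of the fall depended on the denominator. Per 1000000 of all gene counts, Rnu12 was at 9.71 and 12.7 in WT (A and B) against 9.32 and 5.37 in miR-379KO. Rnu11 was then at 4.62 and 4.59 against 3.82 and 1.97, so that the A libraries differed little for either RNA. With an offset for GC content and length the log2 fold changes shrank to -0.76 (adjusted p 0.0267) for Rnu12 and -0.77 (0.0822) for Rnu11, and when libraries were scaled to snoRNA counts they were -1.66 and -1.68 but neither was called (adjusted p 0.122 and 0.112). Rnu11 also lost its call without miR-379KO B (-1.15, adjusted p 0.0587). The larger share of reads outside genes in miR-379KO AGO2-IP moved with genotype, and its part in these differences was not tested.

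Rmrp stood at 27400 and 20600 in WT against 26100 and 13100 in miR-379KO, so that the genotypes overlapped and miR-379KO B was the lowest library. Its log2 fold change was -0.59 ± 0.39 (adjusted p 0.258 in edgeR). Rpph1 stood at 13000 and 9080 in WT against 14700 and 10300 in miR-379KO. By this measure each letter was higher in miR-379KO, by 1.13 and 1.14 times, whereas with TMM scaling the log2 fold change was -0.13 ± 0.36 (adjusted p 0.810), so that the direction of RNase P RNA depended on the scaling. The 2 libraries of a genotype differed by more than this, since Rpph1 in B was 0.700 times A in WT and 0.703 times A in miR-379KO.

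The vault RNA had the lowest B to A ratio of the 6 RNAs in WT AGO2-IP, 0.368. Vaultrc5 was at 88.0 and 32.4 in WT and at 70.3 and 61.8 in miR-379KO, so that both miR-379KO libraries lay between the WT libraries. Its log2 fold change was -0.19 ± 0.39 (adjusted p 0.742 in edgeR), and it was called lower only without WT B (-0.76, adjusted p 0.0453). The telomerase RNA Terc, at 5.87 and 8.10 in WT against 4.59 and 7.17 in miR-379KO, overlapped too (log2 fold change -0.57 ± 0.47, adjusted p 0.373). Terc had 6 to 13 counts a library, and the smallest difference detectable at this depth was not tested.

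**Figure D4:**
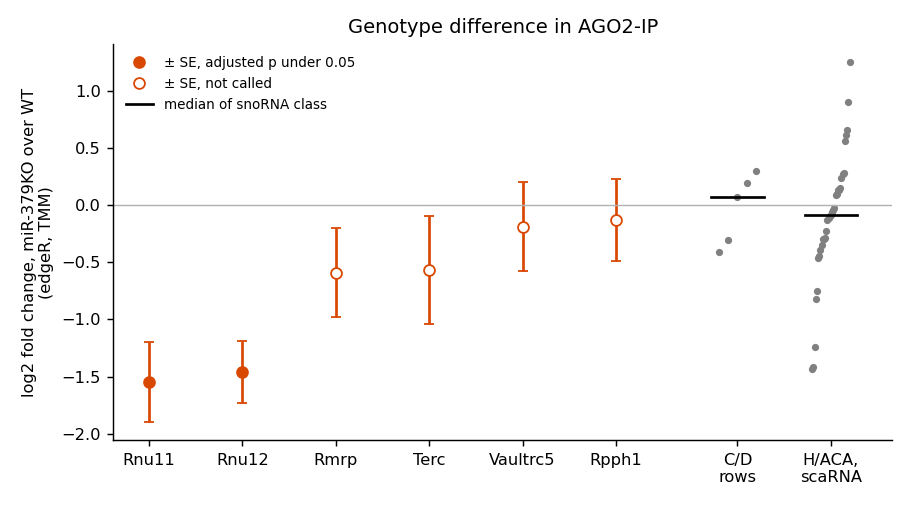
Log2 fold change of miR-379KO over WT in AGO2-IP (edgeR, TMM) for 6 RNAs with SE bars (filled where the adjusted p was under 0.05) and for each tested row of the C/D and the H/ACA and scaRNA classes (grey, median as a line). Rnu11 and Rnu12 lie at -1.55 and -1.46, the class medians are 0.07 and -0.09, and the lowest H/ACA row lies at -1.43.

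The small nucleolar RNAs (snoRNAs), which guide the chemical modification of other RNAs, are the short RNA rows most like these. In AGO2-IP 5 of 76 C/D box rows could be tested between genotypes, and 0 were called or had an unadjusted p under 0.05 in edgeR, with a median log2 fold change of 0.07. Of 45 H/ACA box and scaRNA rows 33 were tested. Of these 1 was higher and 4 were lower, against 21.4% and 9.52% of all rows, with a median log2 fold change of -0.09. The lowest of these rows, Snora20 at -1.43, Snora47 at -1.42 and Snora41 at -1.24, lay near the values of U11 and U12. Against total RNA in WT, 12 of 14 tested C/D rows and 37 of 37 H/ACA and scaRNA rows were higher. This compares to 6 of the 7 rows described here and 35.7% of all rows. Only 3 C/D and 5 H/ACA and scaRNA rows had enough counts to be tested in total RNA. The direction of most class rows was therefore also fixed in advance by the count filter. The summed H/ACA and scaRNA share was 1.02 times WT in miR-379KO A and 2.27 times in B, and the C/D share 0.924 and 1.96 times, whereas Rmrp was at 0.952 and 0.636 times and Rnu12 at 0.527 and 0.354 times. These class values were set side by side without a test of the difference.

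In total RNA only the Bc1 row of chromosome X had enough counts to be tested between genotypes. It did not pass, with a log2 fold change of -0.06 ± 0.28 (adjusted p of 1 in edgeR), and of all 12321 rows tested 0 (0%) were called by edgeR or by DESeq2, with 91 at an unadjusted p under 0.05. The difference between the genotype change in AGO2-IP and that in total RNA was called for 0 of 7 tested rows and 0 (0%) of 17429 rows in edgeR, with 2733 of them at an unadjusted p under 0.05. DESeq2 called 120 rows in this contrast, none of them among these. With 0 to 6 counts per total RNA library in 6 of the 7 rows, this contrast had almost no total RNA level to set the AGO2-IP change against.

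The mRNAs of the proteins that bind these RNAs were counted as well, and 79 of 80 listed symbols had a row. In AGO2-IP 3 of 66 tested partner mRNAs were higher and 8 were lower in miR-379KO, against 21.4% and 9.52% of all rows, with a median log2 fold change of -0.14 beside -0.01 for all rows. In total RNA 0 of 76 were called by edgeR, and 0 had an unadjusted p under 0.05. Against total RNA in WT, 6 partner mRNAs were higher and 11 lower of 76, against 35.7% and 7.33% of all rows (median -0.39, beside 0.49 for all rows).

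By machine, 0 of the 4 tested RNase P and MRP protein mRNAs passed between genotypes in AGO2-IP, adjusted or unadjusted in edgeR, where Pop1, the largest shared subunit, was at -0.54 ± 0.32 (adjusted p 0.202 in edgeR). Of 6 tested U11/U12 protein mRNAs 1 was higher, against 21.4% of all rows. This was Rnpc3, which binds both the U11 and the U12 side of the particle and rose by 0.95 ± 0.28 (0.0129). A link between this rise and the fall of the U11 and U12 RNAs was not tested. Zcrb1 of the same particle was at -0.20 ± 0.29, and Snrnp25 was too low to be tested. Of the 7SK particle, Mepce, which caps 7SK RNA, fell by 0.85 on the log2 scale (adjusted p 0.0243), as did the P-TEFb cyclin Ccnt1 by 0.95 (0.00976), while Larp7 was at 0.83 ± 0.33 (0.0575) and Hexim1 at 0.10 ± 0.30. For telomerase and the vault, the protein Tep1 shared by both fell by 0.92 (adjusted p 0.00379 in edgeR), whereas the reverse transcriptase Tert was at -0.35 ± 0.42, Dkc1 at 0.20 ± 0.39 and the major vault protein Mvp at -0.38 ± 0.26.

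Among the Y RNA and oligo-U binders, Ybx1 and Hnrnpk fell by 1.0 and 0.67 on the log2 scale (adjusted p 0.00458 and 0.0369 in edgeR), while Trove2, which encodes Ro60, was at 0.45 ± 0.22 and Ssb, which encodes La, at -0.10 ± 0.24. Of the Bc1 binders, the translation factor Eif4a1 and Hnrnpa2b1 fell by 0.71 and 0.78 (0.0350 and 0.0130), and Fmr1 was at -0.11 ± 0.23. Among 25 tested mRNAs of RNA polymerase III transcription, Polr3g and Gtf3c3 rose by 1.49 and 0.73 (0.0187 and 0.0267) and Gtf3c1 fell by 0.62 (0.0402), all on the log2 scale. All of these values are from AGO2-IP fragments.

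Of 23 symbols of related RNAs, such as RNase P RNA-like copies and other small nuclear RNAs, 7 had a row and none could be tested. The highest in AGO2-IP were Rnu73b, with 0 to 3 counts a library, Rprl2, with 8 counts in miR-379KO B and none elsewhere, and Rprl3, with 0 to 2 counts. By Pearson correlation of log levels over the 8 libraries, among 4971 rows, the rows most like Rmrp were Snord15b (0.9997), Rpph1 (0.9994) and Snora74a (0.9989), and those most like Rpph1 were Snord15b (0.9997), Snora33 (0.9995) and Scarna13 (0.9995). These values are a description, since the libraries fall into an AGO2-IP and a total RNA cluster that set them nearly alone.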

How the data were processed

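The authors deposited raw gene counts, as whole reads for each gene, in a separate list per library. A stranded mRNA kit that selects poly(A) RNA gave the total RNA libraries. For AGO2 samples the methods describe adapter ligation without size selection after a step that joins RNA hybrids, and also RNA sequenced without that step. The paper used RNA without the joining step to look for target enrichment. A supplementary legend names the A and B AGO2-IP samples of both genotypes in that setting. The library labels themselves do not state the step. Reads were aligned to mm10 with TopHat and counted on RefSeq genes by HTSeq 0.6.0 in reverse-stranded mode, with poorly placed alignments left out. Reads shared by near-identical copies are therefore lost. The closing lines of each list (reads outside genes, ambiguous or not unique), 19.8% to 23.8% of all in total RNA and 73.1% to 88.9% in AGO2-IP, were left out of library sizes and tests.

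The 10 names and the partner lists were chosen with earlier results of these data known. All 10 were described, and the partners named were a listed protein per machine plus up to 2 per list and direction called in AGO2-IP. Symbols were matched to RefSeq of GRCm38.p6 (23598 by symbol, 721 by synonym, 320 unmatched) and near copies were searched with BLAST 2.17.0 at 90% identity over 80% of the length. Tests were made in edgeR 4.0.16 (R 4.3.3) after TMM scaling, filterByExpr with a minimum count of 10, and the quasi-likelihood F test, called at a Benjamini-Hochberg adjusted p under 0.05. Genotypes were compared within the 4 libraries of an assay. AGO2-IP was set against total RNA on all 8 libraries with a 2-fold minimum. Since the sources do not tie A and B to separate animals, p-values measure the spread between these samples only. Ratios of counts carry exact 95% intervals. Each SE is the size of the log2 difference over the root of its F statistic, with the spread estimated over all libraries of the fit. The tests were also run on simulated counts, but no outcome is given here. No call, including those on low-count rows, rests on that run. Alternatives were DESeq2 1.42.0, other scalings and filters, a GC content and length offset, a replicate block and the omission of each library.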

Additional observations from a re-analysis of the deposited data

How the results depend on the processing

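Of the 2 rows called between genotypes in AGO2-IP, 1 was called with the GC content and length offset, 1 with a minimum mean of 50 counts (Rnu11 was below it) and 0 with scaling to snoRNA and scaRNA counts (Rnu12 -1.66, Rnu11 -1.68), which shifted the median of all rows to -0.21 (0.36 without a filter and 0.20 with TMM factors from genes expressed in total RNA). Omitting each library gave 1 to 3, and DESeq2 gave 2. The letters A and B share no stated culture, and deviations of same-letter libraries correlated at 0.04 between genotypes in AGO2-IP and -0.03 in total RNA, but at 0.32 between total RNA and AGO2-IP in WT and 0.26 in miR-379KO. A block for each culture left the calls against total RNA at 7 rows in each genotype. With the letter as a replicate block 2 rows were called (Rnu12 -1.49, Rnu11 -1.57), and the block with the GC and length offset left 1 (Rnu11 -0.78, adjusted p 0.0943). The block changed no other call of the rows described. Directions that turned were all of uncalled differences. With the offset Rpph1 was at 0.88, Vaultrc5 at 0.03, Terc at 0.43 and Rmrp at 0.35, and with block and offset at 0.88, 0.14, 0.43 and 0.29. A minimum mean of 50 counts gave 0.22 for Rpph1 and 0.16 for Vaultrc5. TMM factors from genes expressed in total RNA, chosen after seeing the data, gave 0.08 and 0.02. Omitting each library moved Rpph1 from -0.54 to 0.13, Vaultrc5 from -0.76 to 0.64 and the Bc1 row of chromosome X in total RNA from -0.31 to 0.25. The cause was not tested. Rnu12 was below 0 in all alternatives run (-2.06 to -0.76), as was Rnu11 where tested (-2.26 to -0.77). Against total RNA, 3 rows remained testable and called at a minimum mean of 50 counts in WT and 3 in miR-379KO, and otherwise 7 (8 without a filter in miR-379KO). As a share of all gene counts the rows made up 0.473% in WT and 0.644% in miR-379KO. Calls over all rows in AGO2-IP fell from 4173 to 838 in DESeq2, 686 with all 8 libraries in one fit, 274 at a mean of 50 counts, 1148 with snoRNA scaling, 2193 with block and offset, 2351 without WT B and 918 without miR-379KO B. Against total RNA the minimum mean of 50 counts lowered them from 7507 to 1829 in WT and from 10627 to 3380 in miR-379KO, where omitting the filter gave 16163. In the contrast of the genotype changes, 0 became 1547 without WT total RNA B, 1108 with a block for each culture and 436 with block and offset, and in total RNA the crossed block, also chosen after seeing the data, gave 1. None of the calls in the last 2 comparisons were among the rows described. U11 and U12 had 11 to 166 counts per AGO2-IP library, and in total RNA all but the Bc1 row of chromosome X had 0 to 6.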
